A study of Mus musculus with 24 samples.

Results

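Endothelial cells line blood vessels, and mural cells, the pericytes and vascular smooth muscle cells, wrap around them. The 32 genes described here mark these cells, 22 endothelial (Pecam1 to Icam2 of the list) and 10 mural (Rgs5 to Cnn1), and were taken by symbol from a mouse pituitary table of 35191 genes. All 32 were in the table and all passed the filter on low counts, after which 21927 genes were tested. The study sequenced RNA from 24 pituitary libraries in 8 groups of 3, females and males of 4 genotypes. Egr1cKO, conditional knockout of the immediate early transcription factor gene Egr1, carries the genotype FF (+), and its control carries FF (-). Cre control carries wt (+) and wild type carries wt (-). Egr1cKO and Cre control thus share Cre, and Egr1cKO and Egr1cKO control share the FF alleles. No source used here gives the Cre driver, the strain, the age or any pooling of animals. The labels name the tissue pituitary and the cells endocrine. Nothing in the labels says that libraries of a group came from separate animals, so each p rests on the spread among these samples alone, which may be technical.

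The anterior pituitary receives its blood through portal vessels, and its capillaries are fenestrated, with pores through which releasing hormones enter and pituitary hormones leave. Fenestrated endothelium is known for PLVAP, the protein of the diaphragms that span the pores, and it depends on vascular endothelial growth factor A acting on the receptor KDR. Pericytes are recruited by platelet-derived growth factor B through the receptor PDGFRB, and angiopoietins signal to endothelium through the receptor TEK.

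Each library held 15486069 to 26255343 counts. Levels are CPM, edgeR's scaled counts on TMM-adjusted library totals, a gene is called at an adjusted p under 0.05 in edgeR's quasi-likelihood test over all genes tested, and SE is its fit's standard error on the log2 scale. Checked against markers of the labelled tissue, 9 hormone cell genes of the anterior lobe summed to 51095 to 420853 CPM per library. Genes of the posterior lobe, which carries its own vessels, summed to 261 CPM at the lowest, 372 at the median and 593 at the highest in females, and to 107, 235 and 345 CPM in males. The share of counts from mitochondrial genes was 2.14% at the lowest, 6.36% at the median and 10.4% at the highest in females, against 2.08%, 3.17% and 4.80% in males. Female wild type replicate 1 stood apart from the other 2 of its group, with a mitochondrial share of 10.1% against 2.14% and 2.70%, and 18663 genes detected against 23987 and 25410. Egr1 measured 162, 7.55 and 26.6 CPM in female Egr1cKO and 34.2, 11 and 9.79 CPM in female Egr1cKO control. In males Egr1 measured 58.3, 238 and 105 CPM in Egr1cKO, against 51.1, 22.7 and 42.7 CPM in Egr1cKO control. No source used here gives the deleted part of Egr1 or the cells that lose it, so a count over the whole gene does not check these labels. In the other groups Egr1 spanned 61.7 to 486 CPM in female Cre control, 25.3 to 486 CPM in male Cre control, 10.9 to 167 CPM in female wild type, against 19.1 to 51.5 CPM in male wild type.

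Plvap stood first among the members by level per length, at a mean of 36.2 CPM per kilobase of exon over the 24 libraries. Rgs5, a regulator of G-protein signalling that marks pericytes, came second at 22.4 CPM per kilobase. Eng, a transforming growth factor beta coreceptor, followed at 7.73, Podxl at 6.57, the junction adhesion molecule gene Esam at 4.80 and Emcn at 4.50 CPM per kilobase. Genes apart in this order could overlap over the libraries. Podxl, at rank 4, ran between 1.85 and 12.2 CPM per kilobase, and Kdr, at rank 8, between 1.74 and 7.47. Cldn5, the claudin of tight, barrier-forming endothelium, averaged 1.07 CPM per kilobase and had no count in 2 libraries. The receptor phosphatase gene Ptprb stood at 1.33 and the endothelial surface gene Ecscr at 0.976 CPM per kilobase. Vwf, the clotting factor gene of larger vessels, averaged 0.307 CPM per kilobase. The members thus spanned a wide range of levels, with Plvap at the top and Cldn5 and Vwf far below it. Flt1, at 1.15 CPM per kilobase, Ptprb and Ecscr stood near Cldn5, so its low level is not particular to it.

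On the same per-length scale the mural genes ran in a mixed order of pericyte and smooth muscle genes. Rgs5 was followed by the receptor gene Notch3 at 3.40, Pdgfrb at 3.24, the smooth muscle actin gene Acta2 at 2.16 and the potassium channel subunit gene Abcc9 at 1.12 CPM per kilobase. Des, an intermediate filament gene, stood at 0.621, the smooth muscle myosin gene Myh11 at 0.372 and the proteoglycan gene Cspg4 at 0.184 CPM per kilobase. Cnn1 and Tagln, calponin and transgelin of contractile smooth muscle, came last. Cnn1 had no count in 8 libraries and at most 25 counts, and Tagln had none in 10 libraries and at most 13 counts, so no fold change is given for either. Libraries were unstranded, and 8 members have exons that overlap another annotated gene, among them Eng with Fpgs, Egfl7 with Agpat2 and Tagln with Pcsk7. How reads shared by such genes were counted is not known.

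**Figure D1:**
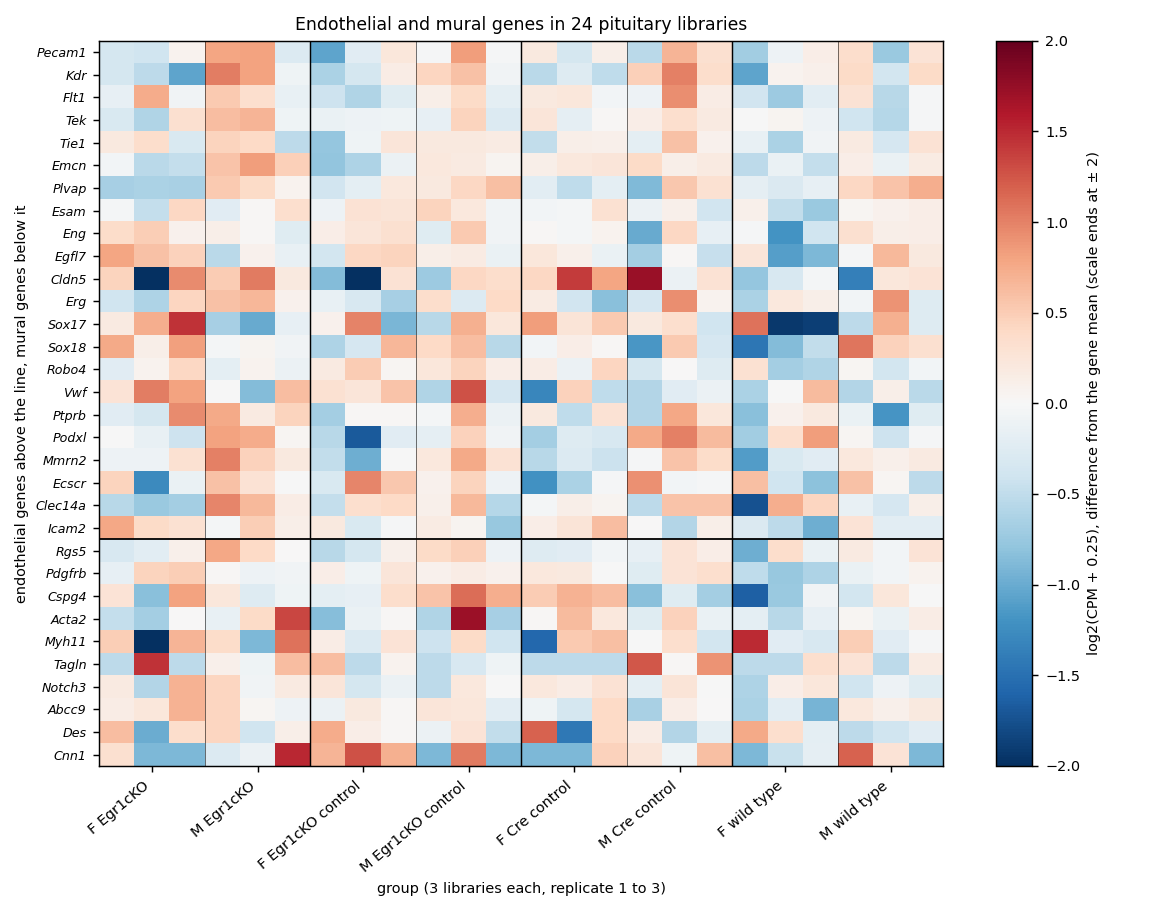
Levels of the 22 endothelial genes (above the line) and 10 mural genes in 24 libraries, as log2(CPM + 0.25) minus the gene's mean. Columns are the 8 groups with their 3 libraries, females left of males within each genotype. Kdr, Plvap, Emcn and Mmrn2 are mostly blue in female columns and mostly red in male columns, while the Sox17 row is darkest blue in female wild type replicates 2 and 3, at 0.424 and 0.449 CPM.

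Averaged over the 4 genotypes, 6 of the 32 genes were lower in females than in males and none was higher. They were the vascular endothelial growth factor receptor gene Kdr, the fenestral diaphragm gene Plvap, the sialomucin genes Emcn (endomucin) and Podxl (podocalyxin), the endothelial matrix gene Mmrn2 (multimerin 2) and the pericyte gene Rgs5. Of all genes tested, 21.7% were called in this comparison, 11.7% lower and 9.99% higher, so 6 called of 32 is near the share of all genes called in either direction. The 22 endothelial genes had a median log2 fold change of -0.28 with 5 positive, and the 8 mural genes other than Tagln and Cnn1 had -0.04 with 3 positive, beside -0.06 over all genes tested. With RLE scaling in place of TMM, Eng and Cspg4, both near 0, changed sign. In bulk tissue, fewer cells of a type and less RNA per cell cannot be told apart.

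Of the 6 genes, Emcn, Kdr and Rgs5 have a promoter window in the RefSeq table for GRCm38.p6. The 250 bases before their annotated start are shown because these genes moved together between the sexes. Capitals mark matches, on either strand, to the ETS core AGGAAG, the GATA motif AGATAA and the GC box GGGCGG. The windows lie at chr3:137340828-137341077 on the plus strand for Emcn, chr5:75978456-75978705 on the minus strand for Kdr and chr1:169655251-169655500 on the plus strand for Rgs5.
Emcn: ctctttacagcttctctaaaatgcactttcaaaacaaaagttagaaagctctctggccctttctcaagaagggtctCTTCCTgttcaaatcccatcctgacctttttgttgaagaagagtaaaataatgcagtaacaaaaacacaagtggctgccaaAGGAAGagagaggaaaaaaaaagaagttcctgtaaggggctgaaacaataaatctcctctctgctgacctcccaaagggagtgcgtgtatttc
Kdr: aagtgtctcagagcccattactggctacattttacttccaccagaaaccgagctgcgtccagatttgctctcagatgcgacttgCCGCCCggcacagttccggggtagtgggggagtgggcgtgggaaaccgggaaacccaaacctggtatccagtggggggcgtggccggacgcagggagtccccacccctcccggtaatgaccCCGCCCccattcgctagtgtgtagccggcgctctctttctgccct
Rgs5: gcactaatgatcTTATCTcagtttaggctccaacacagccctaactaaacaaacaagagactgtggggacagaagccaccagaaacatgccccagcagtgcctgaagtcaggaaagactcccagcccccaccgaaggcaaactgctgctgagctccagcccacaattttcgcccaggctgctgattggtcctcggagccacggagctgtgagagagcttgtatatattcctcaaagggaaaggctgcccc

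The 3 windows do not share these letters: Emcn holds 2 ETS matches, Kdr 2 GC boxes and Rgs5 1 GATA match. Windows of 300 bases (250 before the start and 50 after it) were found for 18 of the 32 members. An ETS match stood in 7 of these 18 genes, against 35.4% of all 32817 windows, a GATA match in 3 against 11.2% and a GC box in 9 against 35.6%. The 18 genes have 22 windows, and a gene counted if any of its windows matched. Its chance of a match is thus higher than that of a single window. The EGR motif GCGTGGGCG, in 0.612% of all windows, was in no member window, and the variant GCGGGGGCG, in 2.91%, was in those of Flt1 and Notch3. No member window held a CArG box (1.63% of all windows) or the estrogen response element (0.0701%). A match describes the letters and not a bound site, and no match says only that these letters are not in this window.

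Plvap (ENSMUSG00000034845, GRCm38 chromosome 8, 71497765 to 71511752) measured 42.9 CPM at the lowest, 57.6 at the median and 79.6 at the highest in the 12 female libraries, against 36.9, 90.9 and 113 CPM in the 12 male libraries. All 12 female libraries lay below the male median, though male Cre control replicate 1 was the lowest of the 24. The log2 fold change was -0.68 (edgeR adjusted p = 0.000274, SE 0.12), a female level 0.626 times that of males. By group, Plvap averaged 43.5 ± 0.692 CPM in female Egr1cKO and 86.5 ± 13.8 CPM in male Egr1cKO (SD, n = 3 each). It averaged 59.1 ± 2.69 CPM in female wild type, against 102 ± 11.2 CPM in male wild type, with no overlap between the libraries in either genotype.

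Kdr (ENSMUSG00000062960, chromosome 5, 75932827 to 75978458) measured 15.7, 24.6 and 36.7 CPM in females at the lowest, median and highest, against 25.6, 44.0 and 67.4 CPM in males. All 12 female libraries were below the male median and 6 were below the lowest male library. The log2 fold change was -0.83 (edgeR adjusted p = 0.000663, SE 0.16), the most negative of the 6. Flt1, the gene of the other main receptor for vascular endothelial growth factor A, had a log2 fold change of -0.31 and was not called (edgeR adjusted p = 0.135), with 9 of 12 female libraries below the male median. Tek and Tie1, the angiopoietin receptor and its partner, had log2 fold changes of -0.16 and -0.25 and were not called either (edgeR adjusted p = 0.407 and 0.220).

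Emcn (ENSMUSG00000054690, chromosome 3, 137341067 to 137432185) measured 13.4, 19.1 and 27.8 CPM in females and 21.3, 26.6 and 41.9 CPM in males at the lowest, median and highest. Of the 12 female libraries, 10 lay below the male median and 6 below the lowest male library. The log2 fold change was -0.52 (edgeR adjusted p = 0.000744, SE 0.10). The 2 exceptions were Cre control libraries, in which Emcn averaged 26.8 ± 1.29 CPM in females and 27.6 ± 2.66 CPM in males (SD, n = 3 each). Podxl (ENSMUSG00000025608, chromosome 6, 31519488 to 31563981), which codes for a sialomucin related to CD34, measured 10.2, 27.1 and 59.6 CPM in females and 24.7, 39.9 and 67.1 CPM in males. Its log2 fold change was -0.59 (edgeR adjusted p = 0.0107, SE 0.16), with 10 of 12 female libraries below the male median.

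Mmrn2 (ENSMUSG00000041445, chromosome 14, 34375465 to 34404287), an extracellular matrix protein that binds the endothelial lectin CLEC14A, had more female libraries below the lowest male library than the other 5. It measured 4.28, 7.79 and 11.9 CPM in females and 9.41, 11.5 and 19.5 CPM in males, and 10 of 12 female libraries were below the lowest male library. The log2 fold change was -0.72 (edgeR adjusted p = 0.00154, SE 0.15). Rgs5 (ENSMUSG00000026678, chromosome 1, 169655501 to 169695813) was the 1 mural gene called. It measured 50.1, 84.9 and 125 CPM in females and 87.8, 115 and 168 CPM in males, with a log2 fold change of -0.41 (edgeR adjusted p = 0.0210, SE 0.12) and 11 of 12 female libraries below the male median. Without male Egr1cKO replicate 1, its adjusted p was 0.0515 in edgeR.

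**Figure D2:**
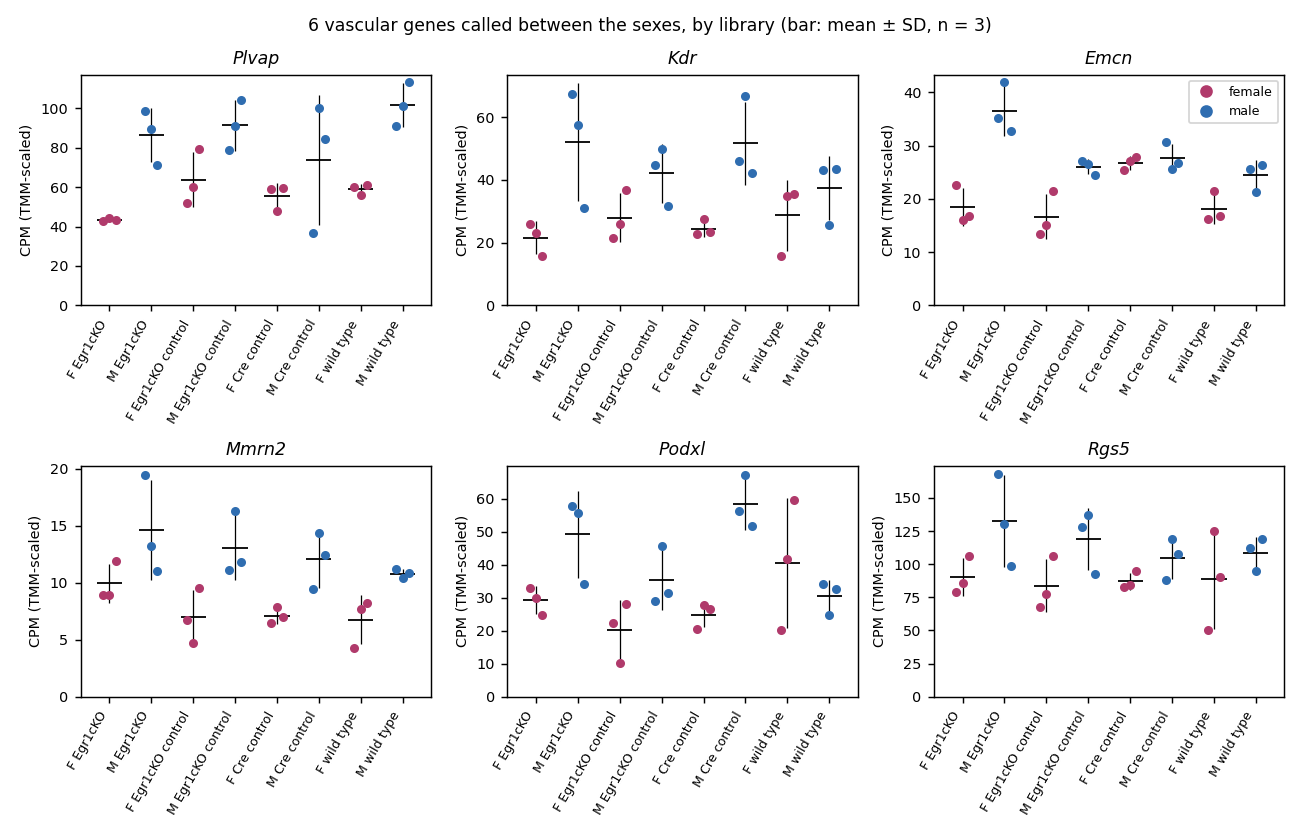
CPM of the 6 genes called between females and males, in each of the 24 libraries. Points are libraries (magenta, females; blue, males), the horizontal bar is the group mean and the vertical line ± SD over 3 libraries. In Mmrn2, 10 of the 12 female points lie below the lowest male point, at 9.41 CPM, and in Emcn the female and male points coincide in Cre control.

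The other members did not pass the threshold between the sexes. Pecam1, the pan-endothelial adhesion gene CD31, measured 7.26, 13.7 and 18.1 CPM in females and 9.07, 19.0 and 27.8 CPM in males at the lowest, median and highest. All 12 female libraries were below the male median, yet the log2 fold change of -0.45 missed the threshold (edgeR adjusted p = 0.0831, SE 0.19). It was called with no filter on low counts (edgeR adjusted p = 0.0128). Erg, the ETS factor gene of endothelium, had 11 of 12 female libraries below the male median and a log2 fold change of -0.55 (edgeR adjusted p = 0.0680, SE 0.22). The transcription factor genes Sox17 and Sox18 had log2 fold changes of 0.46 and -0.25, and the guidance receptor gene Robo4 had 0.10. Ptprb had -0.13 (edgeR adjusted p = 0.663) and Ecscr -0.35 (0.479). Among the mural genes, Pdgfrb, the receptor for platelet-derived growth factor B, measured 10.2, 18.2 and 24.6 CPM in females and 14.6, 18.0 and 22.1 CPM in males. Its log2 fold change was -0.07 (edgeR adjusted p = 0.683, SE 0.10). Acta2 had -0.52 (edgeR adjusted p = 0.153, SE 0.26), Notch3 0.10, Abcc9 -0.11 and Des 0.49, none of them called.

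**Figure D3:**
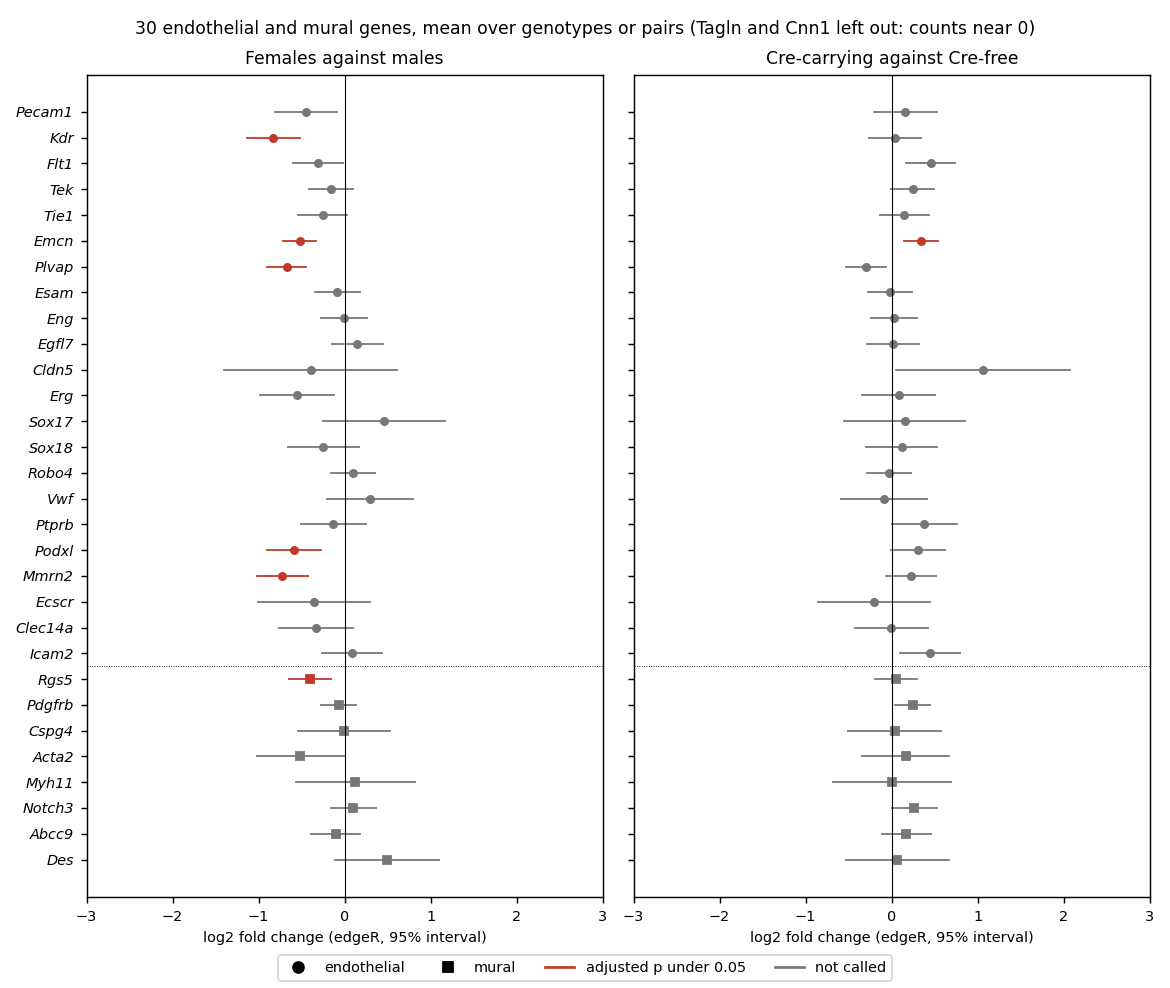
Fitted log2 fold changes of 30 members with 95% intervals (1.96 SE): females against males averaged over 4 genotypes (left) and Cre-carrying against Cre-free libraries averaged over 4 pairs (right). Tagln and Cnn1 are not drawn because their counts were near 0. Circles are endothelial and squares mural genes, and red marks an edgeR adjusted p under 0.05. On the left the 6 red genes lie between -0.83 and -0.41; on the right Emcn, at 0.34, is the 1 red gene.

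Mitochondrial share moved with sex and its part in these differences was not tested. With that share as a covariate, none of the 6 genes was called, and 596 genes were called over the whole table against 4761 without it. The log2 fold change was then -0.58 for Plvap (edgeR adjusted p = 0.0632), -0.38 for Emcn (0.169), -0.35 for Mmrn2 (0.446), -0.33 for Kdr (0.409), -0.03 for Rgs5 (0.99) and -0.02 for Podxl (1). Of the Cre-free females, 4 had a share no higher than the highest male library, 4.80%, and a choice of these libraries made after their values were seen gave a further comparison with the 6 Cre-free males. Mmrn2 lay between 6.72 and 9.49 CPM in these 4 females and between 10.4 and 16.3 CPM in the 6 males, without overlap. Plvap lay between 52.1 and 79.6 CPM in these females and between 78.7 and 113 CPM in males, with 3 of 4 females below the lowest male, and Emcn lay between 13.4 and 21.5 CPM in the females and between 21.3 and 27.1 CPM in the males, with 2 of 4 below it. Kdr lay between 21.3 and 36.7 CPM in these females and between 25.6 and 50.01 CPM in males, with 4 of 4 females below the male median of 43.2 CPM. Podxl and Rgs5 overlapped more, with 2 of 4 and 3 of 4 females below the male medians. The 6 genes had been called with these libraries among the 24, so this comparison is no separate test. Of the members not called, Esam, Egfl7 and Sox17 also had 3 of 4 females below the lowest male. Tek, Vwf, Notch3 and Des had 0 of 4 females below the male median.

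Sums of markers of other cells moved with sex as well, and their part was not tested. The 8 fibroblast genes summed to 378, 530 and 648 CPM in females and 319, 426 and 465 CPM in males at the lowest, median and highest, and the 7 erythroid genes to 143, 294 and 457 CPM in females and 178, 435 and 879 CPM in males. Col1a2 (log2 fold change 0.88, edgeR adjusted p = 1.24e-05) was the only fibroblast gene called. The only erythroid genes called were Alas2 (-1.16, edgeR adjusted p = 0.00783) and Hbb-bt (-0.97, 0.0196). Prl, the lactotrope hormone gene, took 2.25% at the lowest, 7.83% at the median and 14.5% at the highest of all counts in females, against 0.371%, 1.17% and 4.72% in males. The 5 lymphatic endothelial genes tested summed to 104, 206 and 284 CPM in females and 66.7, 98.3 and 140 CPM in males. Among them Reln, the gene of the secreted protein reelin, was higher in females (log2 fold change 3.25, edgeR adjusted p = 5.8e-05) and Prox1, the lymphatic transcription factor gene, was lower (-0.33, 0.0168). The 8 stem and folliculostellate genes summed to 340, 451 and 568 CPM in females and 409, 530 and 585 CPM in males. The 22 endothelial genes themselves summed to 272, 329 and 386 CPM in females and 325, 406 and 529 CPM in males. The 10 mural genes summed to 101, 152 and 204 CPM in females and 142, 179 and 247 CPM in males, so both sums overlapped between the sexes. Rgs5 alone averaged 102 CPM, beside a mean mural sum of 169 CPM over all libraries. The mural sum thus mostly follows Rgs5 and says little of the other mural genes.

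**Figure D4:**
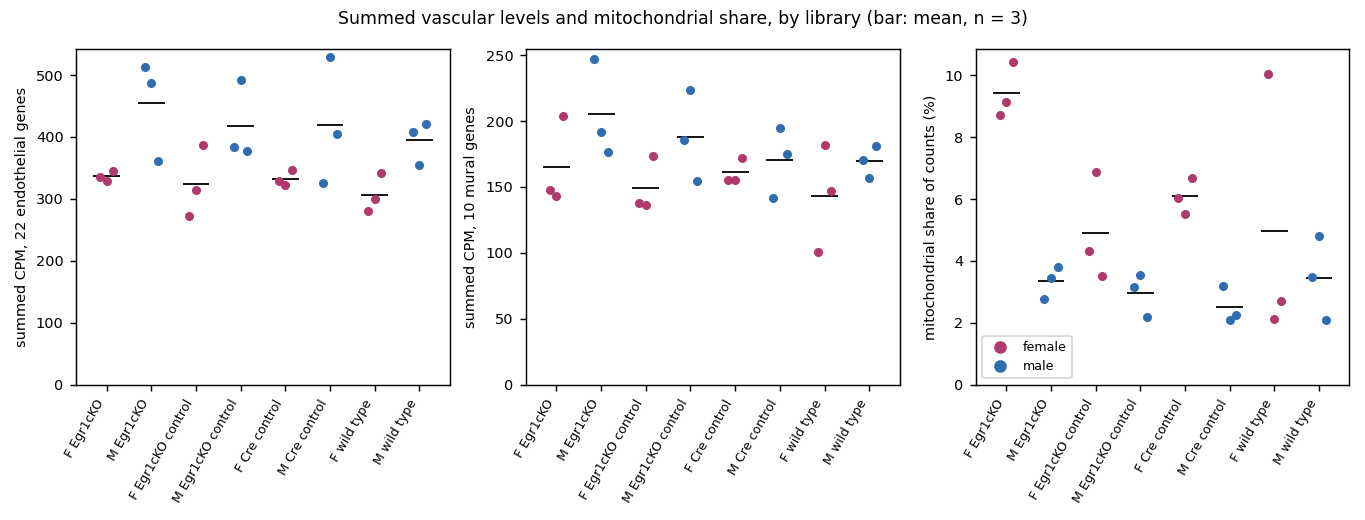
Summed CPM of the 22 endothelial genes, summed CPM of the 10 mural genes, and mitochondrial share of counts in percent, for each library by group. Points are libraries (magenta, females; blue, males) and bars are means of 3. Female libraries reach at most 386 CPM in the endothelial sum while males reach 529 CPM, and the 3 female Egr1cKO libraries and female wild type replicate 1 have mitochondrial shares above 8%.

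Within single genotypes, the sex difference was called most often in Egr1cKO, for the members as for all genes tested. There 4 members were lower in females and none was higher, where 13.1% of all genes were called, 5.49% higher and 7.57% lower. The 4 of 32 members called are thus near the share of all genes called. Emcn measured 22.6, 16.1 and 16.7 CPM in female Egr1cKO and 35.1, 41.9 and 32.7 CPM in male Egr1cKO, without overlap, a log2 fold change of -0.98 (edgeR adjusted p = 0.00387, SE 0.20). Plvap measured 42.9, 44.3 and 43.5 CPM in females and 98.4, 89.6 and 71.4 CPM in males, a log2 fold change of -0.99 (edgeR adjusted p = 0.0101, SE 0.24). Without male Egr1cKO replicate 1 the call was lost (adjusted p = 0.0688 in edgeR). Kdr measured 26.0, 23.0 and 15.7 CPM in females and 67.4, 57.6 and 31.0 CPM in males, a log2 fold change of -1.27 (edgeR adjusted p = 0.0121, SE 0.31). That call was lost without male replicate 1 (edgeR adjusted p = 0.0892), male replicate 2 (0.0576) or female replicate 3 (0.0585). Clec14a, the endothelial lectin that binds MMRN2, measured 5.35, 4.70 and 4.86 CPM in females and 15.9, 12.7 and 8.88 CPM in males, without overlap, a log2 fold change of -1.33 (edgeR adjusted p = 0.0476, SE 0.44). It was lost in 5 of 6 fits that left out 1 library, all but that without male Egr1cKO replicate 3, at up to 0.188 without male Egr1cKO replicate 1, and at 0.0556 with RLE scaling. The mitochondrial shares were 8.73%, 9.13% and 10.4% in the female and 2.76%, 3.44% and 3.79% in the male libraries, and with the share as a covariate none of the 4 was called. Clec14a then had a log2 fold change of 0.14 (edgeR adjusted p = 0.95). Egfl7, a secreted endothelial factor gene, went the other way, at 25.3, 22.04 and 20.2 CPM in female Egr1cKO and 9.90, 15.5 and 13.1 CPM in male Egr1cKO, without overlap, and was not called (log2 fold change 0.81, edgeR adjusted p = 0.0757). It was called higher by DESeq2 (0.86, adjusted p = 0.0499) and by edgeR on these groups alone (0.83, adjusted p = 0.0282).

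In Cre control, 1 member was called between the sexes, where 3.61% of all genes were called, 1.6% higher and 2.01% lower. That count, 1 of 32, is also near the share of all genes called. Podxl measured 20.5, 27.7 and 26.4 CPM in female Cre control, against 56.3, 67.1 and 51.7 CPM in male Cre control, without overlap, a log2 fold change of -1.23 (edgeR adjusted p = 0.0356, SE 0.32). Leaving out any 1 of the 6 libraries ended the call, at an edgeR adjusted p of 0.0517 without male Cre control replicate 1 up to 0.156 without female Cre control replicate 1. The mitochondrial covariate also ended it (0.408). Kdr, at 22.7, 27.6 and 23.3 CPM in females and 46.1, 66.7 and 42.2 CPM in males, did not overlap either and missed the threshold (log2 fold change -1.08, SE 0.31, edgeR adjusted p = 0.0518). No member was called in wild type, where 0.283% of all genes were called, or in Egr1cKO control, where 0.451% were. At an unadjusted p under 0.05 there were 6 endothelial and 2 mural members in wild type, and 4 and 0 in Egr1cKO control, in edgeR. The shares of all genes given here are for adjusted p, so these unadjusted counts cannot be set against them and show no excess. DESeq2 called Sox18 in wild type (log2 fold change -1.59, adjusted p = 0.0283) and no member in Egr1cKO control. The sex effect did not differ by a called amount for any member between Egr1cKO and its control or between Cre control and wild type.

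Cre-carrying against Cre-free libraries, averaged over the 4 pairs of Egr1cKO with its control and Cre control with wild type in each sex, showed 1 called member. Emcn measured 16.1, 26.9 and 41.9 CPM at the lowest, median and highest in the 12 Cre-carrying libraries and 13.4, 21.5 and 27.1 CPM in the 12 Cre-free libraries. Of the Cre-carrying libraries 10 lay above the Cre-free median, and the log2 fold change was 0.34 (edgeR adjusted p = 0.0352, SE 0.10), where 6.89% of all genes were called and 2.80% were higher. The call was lost in 15 of 24 fits that left out 1 library, at up to 0.0891 without male Egr1cKO replicate 2, and with no filter on low counts (0.0985). These libraries were male Egr1cKO replicates 1 and 2, female Egr1cKO 1, male Egr1cKO control 1, 2 and 3, female Egr1cKO control 1 and 2, male Cre control 1 and 3, female Cre control 2 and 3, male wild type 2 and 3, and female wild type 3. Flt1, the receptor gene that also gives a soluble decoy, measured 13.3, 16.8 and 28.7 CPM in Cre-carrying and 8.95, 12.7 and 19.6 CPM in Cre-free libraries. All 12 Cre-carrying libraries exceeded the Cre-free median, and the log2 fold change of 0.45 missed the threshold (edgeR adjusted p = 0.0620, SE 0.15). Flt1 was called with no filter (edgeR adjusted p = 0.0433), with the mitochondrial covariate (0.0233) and in 4 of 24 fits that left out 1 library. These were the fits without female Egr1cKO replicate 1 (0.0452), male Cre control replicate 1 (0.0449), female wild type replicate 1 (0.0484) or male wild type replicate 1 (0.0466).

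The remaining members were not called in this comparison. The endothelial median was 0.13 with 16 of 22 positive, the median of the 8 mural genes other than Tagln and Cnn1 0.11 with 8 positive, and the median of all genes tested -0.03. With RLE scaling Egfl7 and Myh11, both near 0, changed sign. Icam2, an adhesion gene, had 11 of 12 Cre-carrying libraries above the Cre-free median and a log2 fold change of 0.45 (edgeR adjusted p = 0.140, SE 0.18). Cldn5 likewise had 11 of 12 above, at 0, 1.75 and 4.50 CPM at the lowest, median and highest in Cre-carrying and 0, 1.02 and 1.66 CPM in Cre-free libraries, a log2 fold change of 1.06 (edgeR adjusted p = 0.233, SE 0.52). Plvap had the opposite sign, at 36.9, 59.4 and 100 CPM in Cre-carrying and 52.1, 79.1 and 113 CPM in Cre-free libraries, a log2 fold change of -0.30 (edgeR adjusted p = 0.135, SE 0.12). Of the 9 posterior lobe genes 6 were higher with Cre, and together they summed to 211, 361 and 593 CPM in Cre-carrying and 107, 260 and 367 CPM in Cre-free libraries, and Prl took 0.371%, 1.48% and 7.56% of counts in Cre-carrying and 1.64%, 6.41% and 14.5% in Cre-free libraries. The 9 hormone cell genes of the anterior lobe summed to 51095 to 164944 CPM in Cre-carrying and 172062 to 420853 CPM in Cre-free libraries, and the 9 skeletal muscle genes tested to 8.31 to 18.1 CPM in Cre-carrying and 25.9 to 90.1 CPM in Cre-free libraries, both without overlap. Of the muscle genes, only Neb (log2 fold change -2.79, edgeR adjusted p = 9.66e-12) and Ryr1 (-2.34, 1.54e-06) were called, so that sum does not show a change of muscle genes as a set. The 7 melanotrope and corticotrope genes summed to 30910 to 226970 CPM in Cre-carrying, with a median of 51997 CPM, and 7729 to 48934 CPM in Cre-free libraries, with a median of 29360 CPM. The part of these in the values above was not tested.

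No member was called when Egr1cKO was set against Egr1cKO control, where 2.21% of all genes were called in females and 0.041% in males. In females 2 endothelial and 0 mural members had an unadjusted p under 0.05 in edgeR, and in males 1 and 0. The share of all genes at that unadjusted threshold is not given here. DESeq2 called no member in either sex. In females Flt1 measured 13.3, 25.0 and 14.3 CPM in Egr1cKO, against 11.1, 9.72 and 12.6 CPM in Egr1cKO control, without overlap, a log2 fold change of 0.65 (edgeR adjusted p = 0.226, SE 0.30). Plvap measured 42.9, 44.3 and 43.5 CPM in female Egr1cKO and 52.1, 59.8 and 79.6 CPM in female Egr1cKO control, also without overlap, a log2 fold change of -0.55 (edgeR adjusted p = 0.199, SE 0.24). In males Emcn measured 35.1, 41.9 and 32.7 CPM in Egr1cKO, against 27.1, 26.5 and 24.5 CPM in Egr1cKO control, without overlap, a log2 fold change of 0.49 (edgeR adjusted p = 0.66, SE 0.20). With the mitochondrial covariate, Podxl (log2 fold change 1.45, edgeR adjusted p = 0.00161) and Mmrn2 (1.10, edgeR adjusted p = 0.0346) were called in females. Their values without it were 0.53 and 0.50. The covariate fit called 14.1% of all genes in this comparison. Mitochondrial share was 8.73% to 10.4% in female Egr1cKO and 3.50% to 6.87% in female Egr1cKO control, without overlap, so the covariate and the genotype are hard to separate here.

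Cre control against wild type gave no called member in females, where 1.21% of all genes were called (0.369% higher and 0.839% lower), or in males, where 0.233% were (0.0365% higher and 0.196% lower). At an unadjusted p under 0.05 there were 4 endothelial and 3 mural members in females and 3 and 0 in males, in edgeR. These unadjusted counts cannot be set against the shares above, which are for adjusted p. DESeq2 called Pdgfrb in females (log2 fold change 0.76, adjusted p = 0.0137) and no member in males. Pdgfrb measured 20.3, 20.01 and 17.3 CPM in female Cre control, against 12.2, 10.2 and 11.2 CPM in female wild type, without overlap, and just missed the edgeR threshold (log2 fold change 0.78, SE 0.21, adjusted p = 0.0607). Podxl had opposite signs in the sexes. In females it measured 20.5, 27.7 and 26.4 CPM in Cre control and 20.3, 41.6 and 59.6 CPM in wild type, a log2 fold change of -0.70 (edgeR adjusted p = 0.265, SE 0.32). In males it measured 56.3, 67.1 and 51.7 CPM in Cre control, against 34.1, 24.7 and 32.5 CPM in wild type, 0.94 (edgeR adjusted p = 0.285, SE 0.32). The difference between these effects, females minus males, was -1.64 (edgeR adjusted p = 0.0813, SE 0.45), where 0.128% of all genes were called (0.0638% higher and 0.0638% lower). DESeq2 called it (adjusted p = 0.0187), as did edgeR with no filter (adjusted p = 0.000106). No member was called for the difference between the sexes in the Egr1cKO effect (0.0228% of all genes), for the Egr1cKO effect minus that of Cre (0.00456% in females, 0% in males) or for Egr1cKO control against wild type (0% in both sexes), a pair that is confounded with 2 series of numbers in the titles. In these 5 comparisons an unadjusted p under 0.05 was found in edgeR for 1 member, 1 member in females and 0 in males, and 6 members in females and 0 in males. Again the share of all genes at that unadjusted threshold is not given. DESeq2 called Pdgfrb in the last comparison in females (adjusted p = 0.0186) and no member in the others.

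Female wild type replicate 1 decided several of these counts. Without it, 7 members were called in Egr1cKO control against wild type in females, where 18.3% of all genes were then called, and 5 in Cre control against wild type in females, where 15.5% were. Sox17, a factor gene of arterial endothelium, measured 5.23 CPM in that library and 0.424 and 0.449 CPM in the other 2 of its group. Its log2 fold change without the library was 2.998 for Cre control against wild type (edgeR adjusted p = 0.0052, SE 0.73) and 2.66 for Egr1cKO control against wild type (edgeR adjusted p = 0.0087, SE 0.73). Egfl7, also the host of a microRNA, measured 17.2 CPM in that library and 6.64 and 7.67 CPM in the others, with log2 fold changes of 1.09 (edgeR adjusted p = 0.00977) and 1.23 (0.00286) in the same 2 comparisons. Podxl measured 20.3 CPM there and 41.6 and 59.6 CPM in the others, with log2 fold changes of -1.03 (edgeR adjusted p = 0.0182) and -1.32 (0.00219). Robo4 and Pdgfrb were called in both comparisons, and Eng and Esam in that with Egr1cKO control. Also without it, Sox17, Egfl7, Eng and Podxl were called for the sex difference of the Cre effect (18.7% of all genes), Sox17 and Egfl7 for females against males in wild type (4.41%) and Podxl for the Egr1cKO effect beyond Cre in females (5.52%). The 6 genes called between the sexes over the 4 genotypes were called without this library too, with log2 fold changes between -0.76 for Kdr and -0.34 for Rgs5.

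Genes of vascular ligands, chosen with earlier results of these data known, were read in the same fit. Between Cre-carrying and Cre-free libraries, 5 of 17 tested were higher, 2 were lower and the median log2 fold change was 0.36, beside 2.80% higher and 4.08% lower among all genes. Vegfa, the ligand of KDR and FLT1, measured 72.3, 123 and 169 CPM at the lowest, median and highest in Cre-carrying and 43.1, 83.6 and 131 CPM in Cre-free libraries, a log2 fold change of 0.53 (edgeR adjusted p = 0.00172, SE 0.10). Angpt2, the angiopoietin made by activated endothelium, measured 3.04, 8.99 and 21.8 CPM in Cre-carrying and 2.78, 4.88 and 8.28 CPM in Cre-free libraries, 0.99 (edgeR adjusted p = 0.00467, SE 0.22). Angpt1, the TEK agonist made by mural and other stromal cells, went the other way, at 13.4, 40.6 and 76.3 CPM in Cre-carrying and 41.3, 64.2 and 151 CPM in Cre-free libraries, -1.001 (edgeR adjusted p = 0.000382, SE 0.16). The Notch ligand gene Jag1 (0.68, edgeR adjusted p = 0.00711) and the endothelin gene Edn3 (0.74, 0.0096) were higher, and the lymphatic growth factor gene Vegfc (-0.62, 0.0121) was lower. These calls held in all 24 fits that left out 1 library and under every other setting tried for them, although the ranges overlapped for each.

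Of 8 genes listed for fenestrated and tip endothelium, 5 were called higher with Cre and none lower, beside 2.80% higher and 4.08% lower among all genes. The list shares Angpt2 and Apln with the ligand list, and the call of Angpt2 counts in both. In bulk tissue, the cells that gave these counts are not known. This list too was chosen with earlier results of these data known. Esm1, endocan of endothelial tip cells, measured 80.7, 165 and 284 CPM in Cre-carrying and 19.6, 54.8 and 196 CPM in Cre-free libraries, a log2 fold change of 1.37 (edgeR adjusted p = 0.0124, SE 0.32). Trp53i11 measured 271, 313 and 456 CPM in Cre-carrying and 160, 235 and 263 CPM in Cre-free libraries, without overlap, 0.59 (edgeR adjusted p = 0.000578, SE 0.10). Igfbp3, an insulin-like growth factor binding protein gene, had 0.49 (edgeR adjusted p = 0.00967, SE 0.12). Plvap, also on that list, had a negative log2 fold change and was not called. In single comparisons, Vegfa was higher in female Cre control than in female wild type, at 129, 134 and 138 CPM against 65.4, 43.1 and 45.5 CPM (log2 fold change 1.38, SE 0.21, edgeR adjusted p = 0.00154). Angpt1 was lower in the same pair, at 28.7, 36.5 and 22.5 CPM in Cre control and 48.7, 151 and 131 CPM in wild type (-1.91, SE 0.33, edgeR adjusted p = 0.00593). A fit of only these groups called neither (0.203 for Vegfa and 0.315 for Angpt1), and Angpt1 was also lost without female Cre control replicate 3 (0.0622). In female Egr1cKO Angpt1 measured 13.4, 16.4 and 16.5 CPM, against 41.3, 75.7 and 51.3 CPM in female Egr1cKO control, without overlap (-1.86, SE 0.34, edgeR adjusted p = 0.00403). In males Angpt1 was called in neither comparison, and the difference of these effects between the sexes was not called either. The level of Angpt1 was lower in females than in males over the 4 genotypes (-0.61, edgeR adjusted p = 0.00991) and in Egr1cKO (-2.09, 0.000677).

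**Figure D5:**
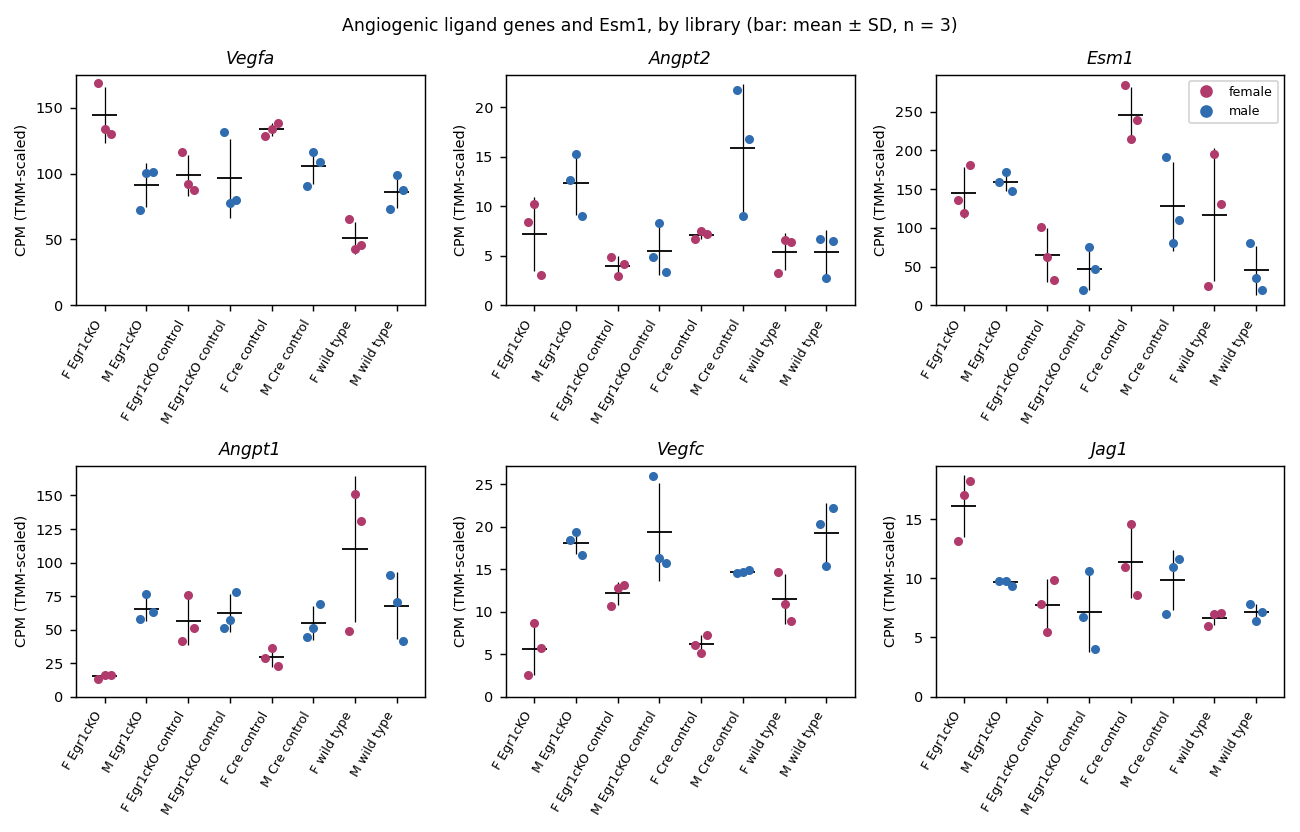
CPM of 5 ligand genes (Vegfa, Angpt2, Angpt1, Vegfc, Jag1) and the tip cell gene Esm1 by library. Points are libraries (magenta, females; blue, males), with the group mean and ± SD over 3 libraries. Angpt1 lies at 13.4 to 16.5 CPM in female Egr1cKO and 22.5 to 36.5 CPM in female Cre control, below every Cre-free library (at least 41.3 CPM).

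Between the sexes, other genes of vessel cells were called as well. Of 18 further endothelial receptor and adhesion genes, 7 were lower in females and none higher, with a median log2 fold change of -0.37. Efnb2, the ephrin ligand of arterial endothelium, measured 19.9, 28.9 and 42.5 CPM in females and 34.9, 57.3 and 71.4 CPM in males at the lowest, median and highest, -0.84 (edgeR adjusted p = 1.33e-05, SE 0.11), and kept its call under the mitochondrial covariate. The KDR coreceptor gene Nrp2 (-1.02, edgeR adjusted p = 0.000771), the adhesion receptor gene Adgrl4 (-0.78, 0.00079) and the apelin receptor gene Aplnr (-0.88, 0.00545) lost theirs under it. Of 12 endothelial transcription factor genes 3 were lower: Gata2 (-1.22, edgeR adjusted p = 1.6e-06), which thyrotropes and gonadotropes also use, Ets1 (-0.66, 0.00162) and Ets2 (-0.50, 0.01). Gata2 kept its call under the covariate, and Ets1 (0.439) and Ets2 (0.94) did not. Of 11 basement membrane genes 4 were lower, among them the nidogen gene Nid2 (-0.53, edgeR adjusted p = 0.0155) and the laminin gene Lamc1 (-0.37, 0.0178), and of 20 further mural genes 2 were lower, the guanylate cyclase subunit gene Gucy1b1 (-0.69, 0.000318) and the Notch target gene Heyl (-0.41, 0.0434, lost in 16 of 24 fits that left out 1 library). Among the 17 ligand genes 5 were lower and 1 was higher. Vegfc measured 2.55, 8.78 and 14.6 CPM in females and 14.5, 16.5 and 26.0 CPM in males, -1.09 (edgeR adjusted p = 2.58e-05, SE 0.16), and kept its call under the covariate. Of all genes, 11.7% were lower and 9.99% higher in this comparison. Of 9 barrier-type genes, the organic anion transporter gene Slco1a4 was higher (1.40, edgeR adjusted p = 0.000641) and the lipolysis receptor gene Lsr was lower (-0.78, 0.0229), and neither of these calls held with the mitochondrial covariate.

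Across libraries of the same group, the members moved together only loosely. Over 231 pairs of endothelial genes, the mean correlation of deviations from the group mean was 0.143, within -0.72 and 0.82, against 0.00633 over all 16109 genes with a mean of at least 1 CPM. It was 0.203 over 28 pairs of the 8 mural genes above that level and 0.160 over the 176 pairs of an endothelial with a mural gene. Sox18 (0.75), Pecam1 (0.74) and Mmrn2 (0.66) followed the mean of the other endothelial genes most, and Sox17 ran against it (-0.32). Among the mural genes Notch3 followed the others most (0.66), while Pdgfrb did not (0.01). All of these are descriptions over 24 libraries that share depth and tissue makeup.

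The genes outside the set whose log2 level was most like the endothelial mean over the 24 libraries were Zfp36l1 (r = 0.80), Cldn11 (0.78), Zcchc24 (0.76), Igfbp5 (0.76), Tcn2 (0.75), Fbln1 (0.75), Chst2 (0.75), Cdh5 (0.73), Osbpl3 (0.73) and Wscd1 (0.72). Cdh5, vascular endothelial cadherin, was the classical endothelial marker among them. Those most like the mural mean were Rdh10 (r = 0.67), Moxd1 (0.66), Runx1 (0.65), Gjb1 (0.64), Cadm3 (0.64), Fscn2 (0.63), St5 (0.62), Gjc1 (0.62), Tspan18 (0.62) and Proser2 (0.61), each a weaker likeness than any of the 10 endothelial ones. These correlations compare single genes with a mean that rests on the members, and carry no test.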

How the data were processed

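Polyadenylated RNA of 24 pituitary libraries was sequenced without strand information, per the labels' protocols. Per the submitters' processing notes, the tools were STAR 2.7.9, Trim Galore 3.8.2 and FastQC, and the build GRCm38. No source used here names the counting tool or annotation. The authors deposited raw counts per Ensembl gene, whose totals were 15486069 to 26255343 per library. Depth sets the precision of a value, and genes near 0 are the least precise. Of 35191 genes, 35077 matched GENCODE M21, which gave symbols, positions and exon lengths. The 8 groups come from the labels, and replicates were numbered in accession order. No replicate pair agreed within sampling noise (lowest chi-square per degree of freedom 16.3). edgeR 4.0.16 (robust quasi-likelihood, TMM, filterByExpr) was fitted once to all 24 libraries with 8 group means, with Benjamini-Hochberg adjustment over 21927 genes and a threshold of 0.05, in R 4.3.3. The fit was tested on simulated data. Alternatives were RLE scaling, no filter, mitochondrial share as a covariate, DESeq2 1.42.0, only the groups compared, and each library left out. The text names all 32 members, at most 4 called genes per direction of each other list, by smallest p, and the 10 genes most like each mean. The comparison of Cre-free libraries matched on mitochondrial share was added after the data were seen. The members and lists were chosen with earlier results of these data known.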

Additional observations from a re-analysis of the deposited data

How the results depend on the processing

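For the 32 genes, counts of called members kept within 1.5 times the main count in 185 of 234 settings. Most of the 16 comparisons had a main count of 0, and 0 in both fits also counted as kept. That figure is thus no measure of how stable a call is. The mitochondrial covariate gave 0 called between the sexes over the 4 genotypes (6 in the main fit), 0 in Egr1cKO (4) and 0 in Cre control (1). It called 2.72%, 0.981% and 0.876% of all genes there. It gave 1 in wild type (0), 2 for Egr1cKO against its control in females (0), 1 for Cre control against wild type in females (0), 3 for Cre-carrying against Cre-free (1), 3 for the Egr1cKO effect beyond Cre in females (0) and 3 for Egr1cKO control against wild type in females (0). In the same order, the covariate fit called 1.72%, 14.1%, 2.73%, 19.3%, 8.42% and 6.83% of all genes. No filter on low counts gave 2 between the sexes in wild type, 2 in Cre control and 1 in Egr1cKO control. It gave 1 each for Cre control against wild type in males, for the sex difference of the Cre effect, for the Egr1cKO effect beyond Cre in females and for Egr1cKO control against wild type in females. Of 35191 genes, the fit with no filter called 1.05%, 6.89% and 2.22% in those 3 sex comparisons. In the others named it called 2.0%, 4.06%, 0.466% and 2.29%. DESeq2 gave 2 between the sexes in Cre control and 1 in wild type, and 1 each for Cre control against wild type in females, the sex difference of the Cre effect and Egr1cKO control against wild type in females. In that order DESeq2 called 5.85%, 0.585%, 2.79%, 2.6% and 1.85% of 35191 genes. Only the groups compared gave 2 in Cre control, where 16.7% of all genes were then called. Leaving out 1 library gave 5 to 8 between the sexes over the 4 genotypes, 1 to 4 in Egr1cKO, 0 to 1 in Cre control and 0 to 2 in wild type. Leaving out 1 library gave 0 to 5 for Cre control against wild type in females, 0 to 2 for Cre-carrying against Cre-free, 0 to 4 for the sex difference of the Cre effect, 0 to 1 for the Egr1cKO effect beyond Cre in females and 0 to 7 for Egr1cKO control against wild type in females. The highest shares of all genes called in these fits were 15.5%, 8.12%, 18.7%, 5.52% and 18.3%, each without female wild type replicate 1. With the covariate, log2 fold changes changed sign for Clec14a (0.14) and Aplnr (0.13) between the sexes in Egr1cKO, and for Aplnr (0.0048) and Ets2 (0.047) over the 4 genotypes. The cause was not tested. Where a setting leaves out a library, the others of its group are assumed to vary like the rest. No paired analysis was possible because the labels give the groups no shared replicate numbers. Depth limits Cldn5, Tagln and Cnn1, which had libraries with no count.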
